A study of Mus musculus with 9 samples.

Results

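The colon of mice with chemically induced colitis was compared with the untreated colon by sequencing its microRNAs (miRNAs), the short RNAs that pair through a seed at bases 2 to 8 with messenger RNAs and lower their output. The comparison used 6 of the 9 samples of the series, the 3 Control and the 3 DSS colons. All came from wild-type C57BL/6J mice on a normal diet. Control mice drank water, and DSS mice drank water holding 2.5% (w/v) dextran sulfate sodium (DSS), a polysaccharide that injures the colon lining. Mice that also received royal jelly acid made up the other 3 samples and are outside the comparison. The labels name no animals, so the p-values speak only for the spread among these 6 samples, and the sources used here do not give age, sex or the length of DSS exposure. Of 1155 entries in the table, 1126 carried mouse miRNA names, and the 417 of these with at least 10 reads in at least 3 of the 6 libraries were tested. The 709 others held at most 0.0184% of the reads of any library.

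Each miRNA gene gives a hairpin precursor from which a 5p and a 3p arm are cut, and usually 1 arm accumulates more than the other. Neighbouring precursors are often cut from 1 transcript, which can be the intron of a host gene, and related miRNAs with a shared seed form a family with overlapping targets. In the colon, miR-192, miR-194, miR-215 and the miR-200 family mark the epithelium, miR-143 and miR-145 the smooth muscle, and miR-223, miR-150 and miR-155 the leukocytes. DSS colitis is known for ulceration of the epithelium and an influx of leukocytes.

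The epithelial miRNAs and the pair miR-132-3p and miR-212-3p, of which miR-212-3p rose most of all, are shown here because the results turn on how the members of each family moved. Sequences are from RefSeq (GRCm38.p6), 5′ to 3′, with the seed in capitals.
miR-192-5p: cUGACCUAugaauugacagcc
miR-215-5p: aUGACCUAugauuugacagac
miR-194-5p: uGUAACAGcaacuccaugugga
miR-194-1-3p: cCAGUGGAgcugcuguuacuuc
miR-194-2-3p: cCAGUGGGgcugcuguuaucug
miR-200a-3p: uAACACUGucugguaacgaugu
miR-141-3p: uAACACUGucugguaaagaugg
miR-200b-3p: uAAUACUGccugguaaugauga
miR-200c-3p: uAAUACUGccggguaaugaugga
miR-429-3p: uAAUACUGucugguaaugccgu
miR-132-3p: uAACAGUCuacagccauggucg
miR-212-3p: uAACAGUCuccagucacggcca
miR-192-5p and miR-215-5p share a seed and differ at 3 of 21 bases, and miR-132-3p and miR-212-3p share a seed and differ at 5 of 22. The miR-200 family holds 2 seeds, that of miR-200a-3p and miR-141-3p and that of the other 3. The 3p arms of the 2 miR-194 genes differ within the seed: counted from the 5′ end, miR-194-1-3p and miR-194-2-3p differ by A8G, C19U, U20C and C22G.

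Members of a family were not always all called, and the following are seed partners of which 1 was called and others were not. Whether these members differ in their change was not tested. The first 3 share a seed, as do the middle pair and the last pair.
miR-148a-3p: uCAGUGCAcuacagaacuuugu
miR-148b-3p: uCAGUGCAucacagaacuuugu
miR-152-3p: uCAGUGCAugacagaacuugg
miR-181b-5p: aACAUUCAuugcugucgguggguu
miR-181d-5p: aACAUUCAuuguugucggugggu
miR-92a-3p: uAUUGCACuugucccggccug
miR-363-3p: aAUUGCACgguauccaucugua
Precursors are shown for the miRNAs with the largest change in each direction, with both mature arms in capitals. Mir194-1 lies at chr1:185313319-185313385 on the plus strand and Mir212 at chr11:75173388-75173478 on the plus strand (GRCm38), each in an intron of a noncoding transcript.
Mir194-1: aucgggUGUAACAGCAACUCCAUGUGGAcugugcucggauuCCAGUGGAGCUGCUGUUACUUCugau
Mir212: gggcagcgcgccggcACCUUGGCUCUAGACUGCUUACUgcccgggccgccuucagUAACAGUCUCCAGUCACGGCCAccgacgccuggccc

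The 6 libraries held 6453747 to 8280921 reads of mouse miRNAs. The smooth muscle miRNA miR-143-3p took 66.4% to 75.5% of them, which left 1850710 to 2538741 reads for all others. These totals were scaled by the trimmed mean of M values (TMM), with factors of 0.868 to 0.904 in Control and 1.10 to 1.16 in DSS, and levels are given as counts per 1000000 of the scaled total (CPM). The scaling placed the median log2 fold change of all 417 miRNAs at 0.03, and scaling by library size alone placed it at 0.38. The libraries were amplified by PCR with no molecular identifier, so reads are not independent molecules. Replicates were alike in Control (Spearman correlation over miRNAs 0.982 to 0.987) and less so in DSS (0.963 to 0.968). Both the smooth muscle and the epithelial markers were abundant in Control.

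In DSS colon 39 miRNAs rose (9.35% of those tested) and 48 fell (11.5%), together 20.9%, by edgeR's quasi-likelihood test with a Benjamini-Hochberg adjusted p under 0.05. The largest falls were in miRNAs known from epithelia: miR-194-1-3p, miR-205-5p and miR-215-5p fell most, and the rest of the miR-192/194/215 clusters and the miR-200 family fell as well. The largest rises were in miR-212-3p, both arms of miR-223 and miR-132-3p, and miR-342, miR-155 and miR-150 also rose, miRNAs known from CREB signalling and leukocytes. At an unadjusted p under 0.05 there were 71 higher and 81 lower, and the groups did not overlap for 183, which is 43.9% of those tested. With scaling by library size alone, 106 rose and 30 fell, so that 77.9% of calls were higher, against 44.8% with TMM. All 87 called miRNAs kept their sign under both scalings. Taken as shares of reads, the miRNAs that fell went from 11.5% to 13.3% in Control to 2.53%, 5.94% and 2.84% in DSS 1 to 3, and those that rose from 0.742% to 0.806% in Control to 2.11%, 1.53% and 1.87% in DSS. In bulk colon, fewer cells of a type and less miRNA per cell cannot be told apart.

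**Figure D1:**
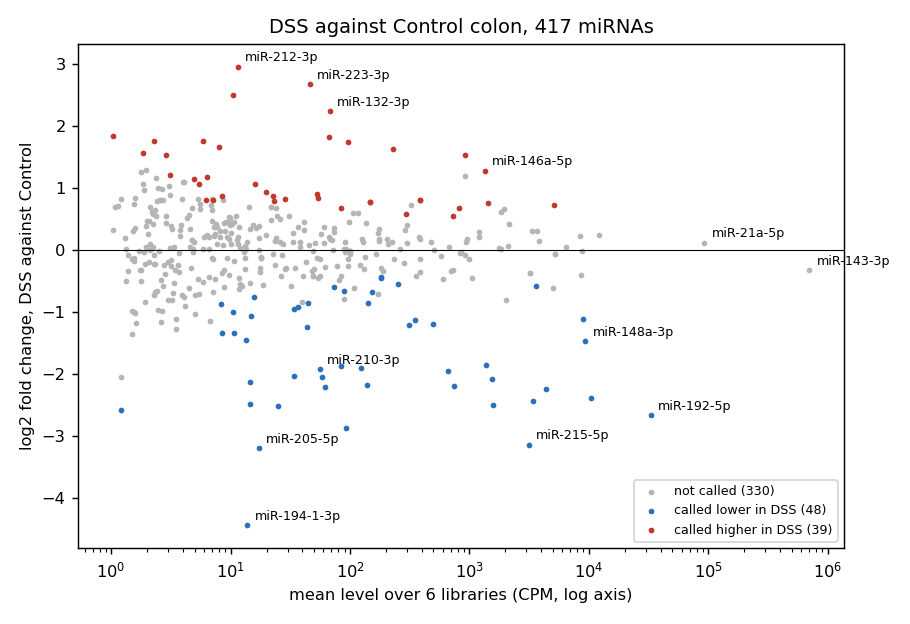
Mean level over the 6 libraries (CPM, log axis) against the log2 fold change of DSS against Control, 1 point per tested miRNA, with the 48 that fell in blue, the 39 that rose in red and the 330 not called in grey. The falls reach -4.43 and the rises 2.96, while the most abundant miRNA, miR-143-3p, lies at -0.32.

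Every tested miRNA of the miR-192/194/215 clusters, which in mouse and human are enriched in gut epithelium, fell. miR-215-5p was at 5162, 5020 and 6828 CPM in Control 1 to 3 and at 176, 1415 and 346 CPM in DSS 1 to 3. All DSS values lay below all Control values, DSS 2 was the highest of the DSS colons, and the fit gave an 8.78-fold lower level (log2 fold change -3.13 ± 0.70, standard error, adjusted p = 0.0191, edgeR). miR-192-5p, the third most abundant miRNA, was at 54119, 52552 and 65169 CPM in Control and 3708, 18079 and 5373 CPM in DSS, 6.33-fold lower. The same order of the DSS libraries was seen, and miR-194-5p, which both miR-194 genes produce, was at 5944, 5652 and 5723 CPM in Control and 498, 2034 and 673 CPM in DSS, 5.41-fold lower. Their other arms fell as well, miR-215-3p by 2.87 and miR-192-3p by 2.48 on the log2 scale. Per 100 reads of miR-192-5p there were 9.54 to 10.5 reads of miR-215-5p in Control and 4.75 to 7.83 in DSS.

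The 3p arms tell the 2 miR-194 genes apart, since their 5p arms are identical. miR-194-1-3p, from the Mir194-1 gene beside Mir215, had 185, 172 and 176 reads in Control and 2, 14 and 13 reads in DSS. That is 26.5 ± 2.75 against 1.22 ± 0.870 CPM (mean ± SD, n = 3), 21.6-fold lower (log2 fold change -4.43 ± 0.46, adjusted p = 0.00148, edgeR), on few reads in DSS. miR-194-2-3p, from the gene beside Mir192, had 393, 362 and 346 reads in Control and 28, 191 and 93 in DSS, and was 4.07-fold lower (adjusted p = 0.043, edgeR). Both fell, by unequal values: per 100 reads of miR-194-2-3p there were 47.1 to 50.9 reads of miR-194-1-3p in Control and 7.14 to 14.0 in DSS. This proportion was chosen after its values were seen and has no test.

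The miR-200 family, which represses the mesenchymal factors Zeb1 and Zeb2, fell in all 9 arms tested. miR-200b-3p was at 17032, 16823 and 18893 CPM in Control and 1350, 6791 and 2014 CPM in DSS, 5.19-fold lower (adjusted p = 0.0211, edgeR). DSS 2 again kept the highest level, and no DSS library reached a Control library. Of the other 3p arms, miR-141-3p was 5.71-fold lower, miR-429-3p 5.63-fold, miR-200a-3p 4.70-fold and miR-200c-3p 3.59-fold. The 5p arms of miR-200a, miR-200b and miR-141 had log2 fold changes of -2.19, -2.17 and -2.13. miR-200c-5p, at -2.57, rested on 15, 16 and 11 reads in Control and 3, 4 and 1 in DSS, and it passed the read minimum only through Control.

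Of the 10 listed miRNAs of absorptive and secretory epithelium, 9 fell, against 11.5% of all tested. None of the 10 overlapped between groups, where 43.9% of all tested did not overlap in either direction. The median log2 fold change of the 10 was -2.41, against 0.03 over all tested. Their summed level was 96666, 93934 and 113506 CPM in Control and 8025, 35312 and 11917 CPM in DSS 1 to 3. miR-203-3p, which promotes epithelial differentiation, was 2.31-fold lower at 189.9 ± 109 CPM in DSS. The exception was miR-375-3p, a miRNA of enteroendocrine and goblet cells, at 2384, 2325 and 2996 CPM in Control and 859, 1956 and 1581 CPM in DSS (log2 fold change -0.81 ± 0.29, adjusted p = 0.0791, edgeR). It was not called, although its groups did not overlap. Whether it differs from the other members was not tested. With the royal jelly acid samples also in the fit, or without Control 1 or Control 3, edgeR called 0 of the 10 members, while each kept its negative sign.

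Of 7 other listed miRNAs known from epithelia, 4 fell, against 11.5% of all tested, and 3 were too scarce to be tested. In the miR-183 cluster, known from sensory and epithelial cells, 3 of 4 tested miRNAs fell, by 2.07 (miR-182-5p), 1.94 (miR-183-5p) and 1.91 (miR-96-5p) on the log2 scale. The fourth, miR-183-3p, had 10, 13 and 16 reads in Control and 0, 6 and 5 in DSS and was not called (adjusted p = 0.0726, edgeR). miR-205-5p, a miRNA of stratified and progenitor epithelia with the second largest fall of all, had 228, 236 and 172 reads in Control and 16, 39 and 26 in DSS, and was 9.14-fold lower (adjusted p = 0.00148, edgeR). It was the only tested one of 4 listed miRNAs of epithelial injury. The other 3 were under the read minimum: miR-31-5p had 1, 4 and 2 reads in Control and 18, 8 and 15 in DSS, miR-31-3p had 0, 8 and 1 against 9, 4 and 10, and miR-135b-5p had 6, 5 and 2 against 12, 16 and 6. For miR-31-5p every DSS count was above every Control count, and for the other pair the groups overlapped or met at 1 value.

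**Figure D2:**
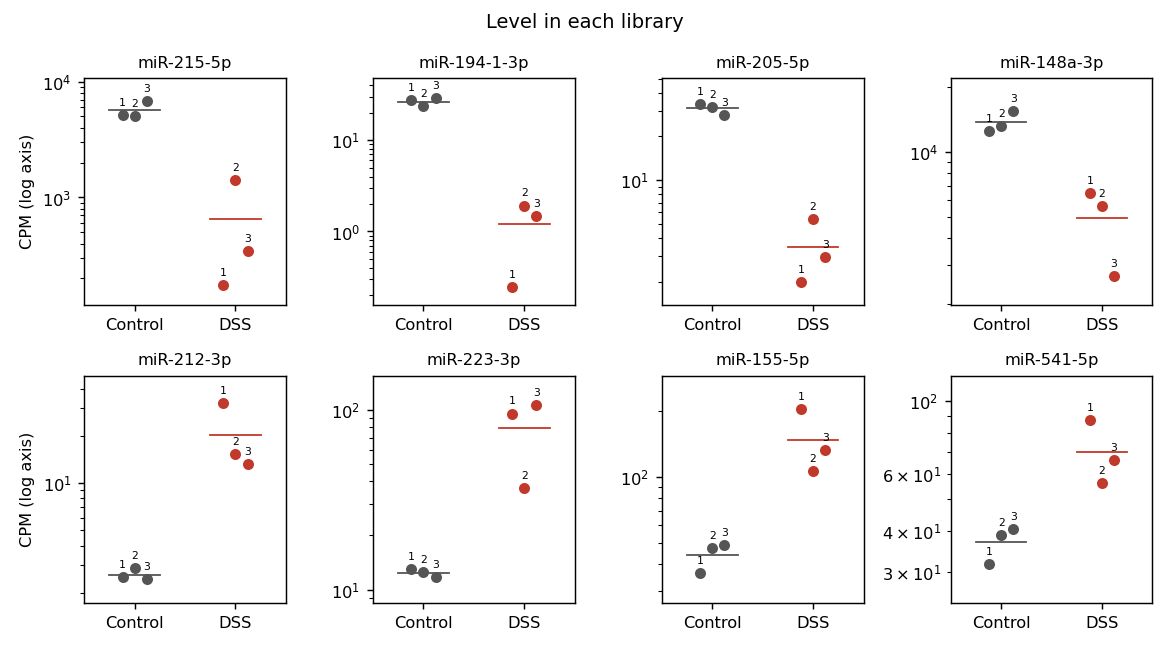
Level in each library (CPM, log axes) of 4 miRNAs that fell (top) and 4 that rose (bottom), with points numbered by replicate and a line at each group mean. In every panel the groups are separate, and DSS 2 lies nearest to Control for miR-215-5p, miR-194-1-3p, miR-205-5p, miR-223-3p, miR-155-5p and miR-541-5p.

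Several miRNAs known from many tissues also fell. miR-148a-3p, the sixth most abundant, which targets the DNA methyltransferase Dnmt1, was at 12500, 13216 and 15383 CPM in Control and 6500, 5665 and 2685 CPM in DSS, 2.77-fold lower (adjusted p = 0.015, edgeR). Here DSS 3 rather than DSS 1 was lowest. miR-148a-5p, the other arm, was 4.12-fold lower (adjusted p = 0.00148). Both arms of miR-210, the main miRNA induced by hypoxia and the one named in the series title, fell: miR-210-3p was at 99.1, 87.4 and 77.7 CPM in Control and 10.3, 35.6 and 24.0 CPM in DSS, 3.79-fold lower (adjusted p = 0.0145, edgeR), and miR-210-5p was 2.53-fold lower. The call of miR-210-3p ended in the same 3 fits as those of the epithelial list.

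Of the 4 tested miRNAs of the miR-378 list, made in part from an intron of the metabolic coactivator gene Ppargc1b, 3 fell, against 11.5% of all tested. The fourth, miR-378b, was not called. All 4 had negative log2 fold changes, with a median of -1.13. None of the 4 overlapped between groups, where 43.9% of all tested did not overlap in either direction. miR-378a-3p was at 12321 ± 897 CPM in Control and 5682 ± 1343 CPM in DSS, 2.17-fold lower (adjusted p = 0.0117, edgeR), and miR-378c and miR-378a-5p had log2 fold changes of -1.20 and -0.85. The sources used here do not say how reads shared by such similar sequences were divided, so miR-378c is uncertain as separate from miR-378a-3p. In the miR-30 family 2 of 5 fell, against 11.5% of all tested, miR-30e-5p by 1.12 and miR-30d-5p by 0.57 on the log2 scale. The most abundant, miR-30a-5p, was at -0.41 ± 0.19 (adjusted p = 0.161, edgeR). miR-196a-5p, from the Hox gene clusters, was at 132 ± 5.66 CPM in Control and 36.5 ± 23.6 CPM in DSS, 3.63-fold lower, and miR-196a-1-3p fell by 2.20 on the log2 scale. miR-196b-5p, with the same seed, was at -0.29 and not called.

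All 4 arms of miR-212 and miR-132, neighbouring miRNAs that CREB induces, rose, and miR-212-3p rose most of all miRNAs tested. miR-212-3p was at 2.50, 2.86 and 2.45 CPM in Control and 32.5, 15.4 and 13.2 CPM in DSS, on 17, 21 and 15 and 263, 112 and 115 reads. Every DSS value lay above every Control value, DSS 1 was highest, and the level was 7.76-fold higher (log2 fold change 2.96 ± 0.40, adjusted p = 0.00441, edgeR). miR-132-3p was at 22.5, 26.4 and 21.9 CPM in Control and 163, 78.5 and 94.7 CPM in DSS, 4.74-fold higher. The 5p arms rose with them, miR-132-5p 3.55-fold and miR-212-5p 3.16-fold. Per 100 reads of miR-132-3p there were 10.8 to 11.2 reads of miR-212-3p in Control and 13.9 to 20.0 in DSS, a proportion also chosen after its values were seen.

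Among miRNAs induced by NF-κB, miR-146a-5p, which limits Toll-like receptor signalling through Irak1 and Traf6, was at 728, 879.6 and 754 CPM in Control and 2419, 1725 and 1593 CPM in DSS. It was 2.43-fold higher (adjusted p = 0.00651, edgeR). miR-155-5p, a miRNA of activated lymphocytes and macrophages, was at 36.2, 47.4 and 49.0 CPM in Control and 203, 106 and 133 CPM in DSS, 3.34-fold higher (adjusted p = 0.00651). The seed partner miR-146b-5p was at 515, 614 and 546 against 2171, 753 and 929 CPM. Its log2 fold change was 1.20 ± 0.37 and it was not called (adjusted p = 0.0532), with DSS 1 far above the other DSS colons. miR-21a-5p, the second most abundant miRNA and a common marker of inflammation, was at 72376, 85966 and 108731 CPM in Control and 120449, 109805 and 60257 CPM in DSS. Its groups overlapped, DSS 3 was the lowest of all 6, and its log2 fold change was 0.12 ± 0.28 (adjusted p = 0.784). Of the 9 listed miRNAs of NF-κB and CREB, 6 rose, against 9.35% of all tested, and the median was 1.66. Of these 6, 4 are the arms of miR-212 and miR-132, and the others are miR-146a-5p and miR-155-5p. The value 1.66 is that of miR-212-5p, so the median does not describe the NF-κB members alone.

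Several miRNAs of leukocytes rose. miR-223-3p, a miRNA of neutrophils, was at 13.0, 12.5 and 11.8 CPM in Control and 95.3, 36.6 and 106 CPM in DSS, 6.38-fold higher (adjusted p = 0.00544, edgeR), and miR-223-5p was 5.69-fold higher. DSS 2 had the smallest rise. Yet miR-142a-3p, which all blood cells carry, was at 11.2, 19.7 and 18.9 CPM in Control and 47.0, 19.9 and 14.0 CPM in DSS, so that its groups overlapped (log2 fold change 0.70 ± 0.45, adjusted p = 0.31). Of the lymphocyte list 4 of 6 rose, against 9.35% of all tested. miR-150-5p, which restrains Myb, rose from 469.5 ± 61.4 to 1363 ± 453 CPM, 2.90-fold. The arms of a single hairpin, miR-342-3p and miR-342-5p, rose 3.09-fold and 3.39-fold. The last was miR-155-5p, which is also in the NF-κB and CREB list. miR-181a-5p, high in developing lymphocytes and in many other cells, had a log2 fold change of 0.18 ± 0.15 and was not called.

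Smaller rises were seen in some miRNAs of mesenchyme, nerve and the imprinted Dlk1-Dio3 region. In the fibroblast and mesenchyme list 3 of 6 rose, against 9.35% of all tested. They were miR-214-5p by 0.85 ± 0.19, miR-214-3p by 0.67 ± 0.16 and miR-199a-3p by 0.55 ± 0.16 on the log2 scale. All 3 lie in the transcript Dnm3os. The only negative member was miR-199b-5p at -0.28, not called, with every DSS value below every Control value. In the neuron list 2 of 8 rose, against 9.35% of all tested. The list median was 0.48, and 1 member was negative, at -0.24. miR-9-5p was at 277, 318 and 247 CPM in Control and 590.0, 504 and 380.0 CPM in DSS, 1.75-fold higher (adjusted p = 0.0235, edgeR), and miR-129-5p was 1.72-fold higher (adjusted p = 0.0117). miR-129-2-3p, which is not in the list, was 2.10-fold higher. The neuronal miR-124-3p was near the read minimum, at 1.37 ± 0.484 and 1.78 ± 0.485 CPM, and was not called.

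The Dlk1-Dio3 region of chromosome 12 holds a large miRNA cluster that is expressed from the maternal chromosome. Of the 43 tested miRNAs whose precursors lie in it by position, 34 had positive log2 fold changes (79.1%), against 53.2% of all tested. Of the 43, 6 rose and none fell. The share that rose, 14.0%, was not far from the 9.35% of all tested. The median was 0.31 against 0.03 over all. The abundant miR-127-3p was at 283, 249 and 248 CPM in Control and 323, 318 and 390.1 CPM in DSS (log2 fold change 0.40 ± 0.15, adjusted p = 0.0958), and was not called. miR-541-5p was at 31.6, 38.9 and 40.7 CPM in Control and 87.4, 56.1 and 66.0 CPM in DSS, 1.88-fold higher (adjusted p = 0.0216, edgeR). miR-382-5p was 1.92-fold and miR-134-5p, a regulator of dendritic spines through Limk1, 1.73-fold higher. miR-485-3p, miR-329-3p and miR-337-5p also rose, each from under 10 CPM. Over the 38 tested members of the named list the median was 0.33, and 0.68 with library size alone, where the median of all miRNAs was 0.38. That scaling raised the number of members called higher from 6 to 18, and that of all miRNAs from 39 to 106.

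Other tissue markers did not pass the test in most members. The smooth muscle list was led by miR-143-3p, at 784204, 781625 and 764817 CPM in Control and 618739, 596368 and 653808 CPM in DSS, with a log2 fold change of -0.32 ± 0.15 (adjusted p = 0.155, edgeR) that turned to 0.03 with library size alone. miR-145a-5p from the same transcript was at 0.23 ± 0.16, and miR-143-5p fell by 0.67. For striated muscle miR-1a-3p was at -0.37 ± 0.14, for endothelium miR-126a-3p at 0.30 ± 0.19 and miR-126a-5p at -0.42 ± 0.27, and for red cells miR-451a at -0.61 ± 0.25, with no member of the 3 lists called. The third endothelial entry, miR-126b-3p, had the same counts as miR-126a-5p and adds no second measurement. The medians of striated muscle and red cells, -0.10 and -0.31, turned positive with library size alone, as did that of smooth muscle (-0.16 to 0.19). In the let-7 family, 2 of 9 members rose, against 9.35% of all tested. They were let-7i-5p, 1.66-fold, and let-7e-5p, 1.49-fold, around a family median of 0.07. None of the 3 miR-29 members was called.

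**Figure D3:**
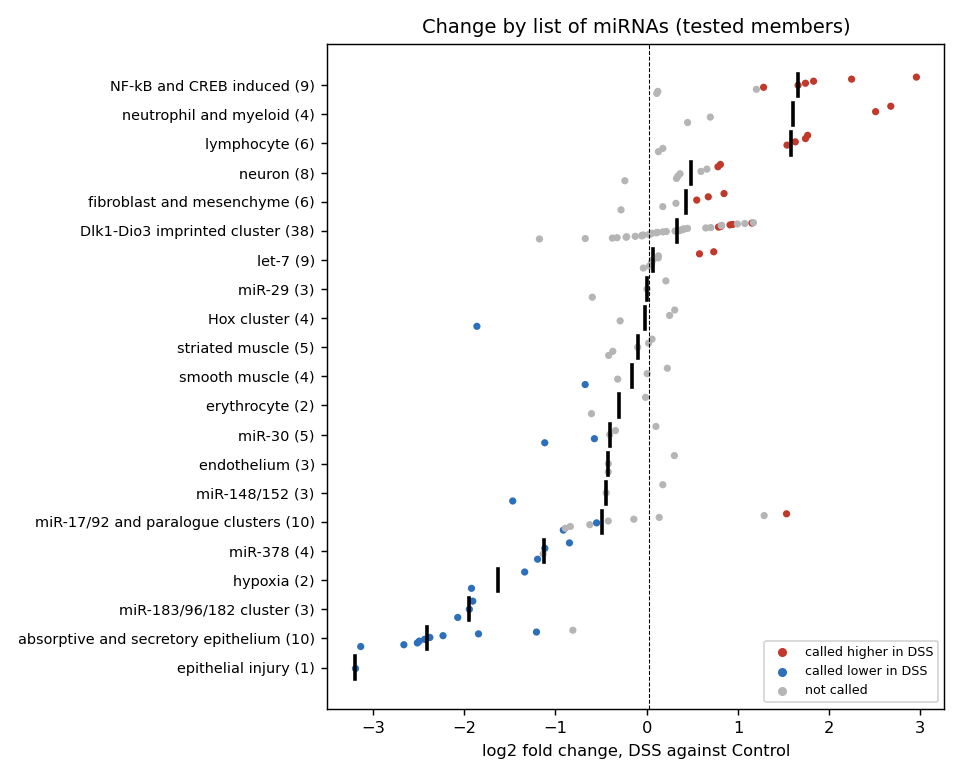
Log2 fold change of every tested member of 21 lists of miRNAs, ordered by the list median (black bar), with called members in red or blue and the number tested in parentheses. The dashed line is the median of all 417 miRNAs, 0.03; the epithelial list lies around -2.41 and the NF-κB and CREB list around 1.66.

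Families that share a seed were described over the 331 tested miRNAs matched to a RefSeq sequence. Of these 331, 78 were called, so a family of at least 3 members may hold a call by that share alone. Of 9 seed families with at least 3 tested members, 7 held a called miRNA and none held calls in both directions. In 1 of them every member was called, that of miR-200b-3p, miR-200c-3p and miR-429-3p. Of all 35 families with at least 2 members, 17 held a call and in 5 every member was called. Members of a family have similar sequences, so reads may have been divided between them.

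Of the other 8, 6 held called and uncalled members, and 2 held no call, those of miR-29 and of miR-15b-5p and miR-16-5p. In the miR-148 family, of members tested, only miR-148a-3p was called, while miR-148b-3p was at 56.4, 57.6 and 74.3 CPM in Control and 53.5, 40.8 and 43.9 CPM in DSS (log2 fold change -0.44 ± 0.19) and miR-152-3p at 0.18 ± 0.13. Per 100 reads of miR-152-3p there were 6448 to 8010 reads of miR-148a-3p in Control and 1321 to 2872 in DSS. In the miR-181 family miR-181d-5p fell by 0.86 on the log2 scale (adjusted p = 0.0145, edgeR), while miR-181b-5p was at 0.13 ± 0.13, and the shorter of these differs from the other at 1 of its 23 bases. Reads of miR-181d-5p per 100 of miR-181b-5p were 42.4 to 52.9 in Control and 22.6 to 26.4 in DSS.

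The seed of miR-92a-3p gave the widest range, from miR-32-5p at -1.11 ± 0.42 to miR-363-3p, which rose by 1.53 ± 0.44 (adjusted p = 0.0441, edgeR). miR-363-3p was scarce, with 5, 16 and 9 reads in Control and 37, 40 and 25 in DSS, while the abundant miR-92a-3p, at 0.14 ± 0.16, was not called, nor was miR-25-3p, at -0.14 ± 0.14. Among miRNAs with the miR-17 seed, which promote proliferation, miR-106b-5p fell by 0.91 and miR-93-5p by 0.55, and miR-17-5p (-0.42 ± 0.20) and miR-20a-5p (-0.84 ± 0.26) were not called. Their X-linked relative miR-20b-5p was at 1.29 ± 0.49, also not called, on under 10 CPM in every library.

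Clusters were taken as precursors on 1 strand at most 10 kb apart. Only the 331 tested miRNAs matched to RefSeq can enter a cluster. Of these 78 were called, so a cluster of several may hold a call by that share alone. Both arms of a hairpin count, and a miRNA from several genes counts in each of their clusters. Of 29 clusters with at least 3 tested miRNAs, 16 held a call, and none held calls in both directions. In 5 clusters every tested miRNA was called one way. They were Mir194-1 to Mir215 on chromosome 1 (4 of 4 lower, from -4.43 to -2.43), Mir194-2 to Mir192 on chromosome 19 (4 of 4 lower, median -2.46), Mir141 to Mir200c on chromosome 6 (4 of 4 lower, -2.32), Mir429 to Mir200b on chromosome 4 (5 of 5 lower, -2.23) and Mir212 to Mir132 on chromosome 11 (4 of 4 higher, 2.04). miR-194-5p is counted in both clusters that produce it. The count for Mir141 to Mir200c includes miR-200c-5p, which passed the read minimum only through Control, where it is high. In Mir450b to Mir322 on the X chromosome miR-503-5p was at 1.85 and called higher, and miR-542-3p was at -1.15 and not called, both under 10 CPM. miR-503-5p passed the read minimum only through DSS, with 2, 3 and 4 reads in Control and 10, 11 and 19 in DSS. It therefore does not show that the members of this cluster parted.

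Host genes were read from GENCODE M21 on the precursor's strand. Of 143 tested miRNAs in a protein-coding host, 8 rose and 16 fell, 16.8% of them called. Of 68 in a noncoding host, 16 rose and 9 fell, 36.8%, and of 120 with no host 11 rose and 18 fell, 24.2%. Of all 331 matched miRNAs 78 were called. The noncoding hosts 2010103J01Rik, 1700016P03Rik, Gm15884 and Mirg each held 4 calls, so 1 transcript can enter a share several times. The shares of the host classes were not tested against each other. Among noncoding hosts, Dnm3os, the antisense transcript of the dynamin gene Dnm3, held miR-199a and miR-214, of which 3 of 4 arms rose and miR-199a-5p was at 0.32 ± 0.16. Mirg, in the imprinted region, held 11 tested miRNAs with 4 risen. miR-223 lay in an exon of F630028O10Rik on the X chromosome.

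Of all tested miRNAs in protein-coding hosts 16.8% were called. Counts within single hosts rest on few miRNAs and were not tested against each other. Evl, a regulator of actin, held both arms of miR-342, and both rose. Ttll10 held the miR-200b cluster, with 5 of 5 lower. In Mcm7, a subunit of the replicative helicase, 2 of 4 fell, miR-106b-5p and miR-93-5p. In Spaca6, 2 of 4 rose, miR-125a-5p 1.60-fold and let-7e-5p. In Nfyc 1 of 4 fell, miR-30e-5p, while miR-30c-5p was at -0.34 ± 0.14 and miR-30e-3p at -0.42 ± 0.16. In Clcn5 none of the 4 tested was called, the largest value being that of miR-501-3p at 0.67 ± 0.26.

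Both arms of 109 precursors were tested. In 14 of these pairs both arms were called, in the same direction each time (5 higher, 9 lower), and in no pair were they called in opposite directions. Of the 14, 1 is miR-200c, whose 5p arm passed the read minimum only through Control, which leaves 13 without it. In 24 pairs 1 arm was called, and the other arm had the same sign in all 24. Some arms in the pairs repeat the counts of another entry to within 2%. Among them are miR-486a-5p with miR-486a-3p, miR-126b-3p with miR-126a-5p, and miR-129b-3p with miR-129-5p. Pairs with such an arm are uncertain as measurements of 2 arms. Across the 109 pairs the log2 fold changes of the arms had a Pearson correlation of 0.888 and a Spearman correlation of 0.781, a description only, since arms share a precursor, a library and its scaling. The ratio of the 5p to the 3p arm, as log2 of counts plus 0.5, changed in 0 pairs (0% of those tested) by limma with Benjamini-Hochberg adjustment, with 14 pairs at an unadjusted p under 0.05 and a smallest adjusted p of 0.293. edgeR with an arm by group term called 0, with 17 pairs at an unadjusted p under 0.05.

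The pairs with the smallest unadjusted p are given as values. In miR-345 the 5p arm, at 22.4, 16.3 and 21.9 CPM in Control and 8.04, 8.11 and 12.8 in DSS, was called lower, the 3p arm was at -0.16 ± 0.30, and the log2 ratio differed by -0.93. In miR-212 both arms rose, the 3p arm more, with a ratio difference of -1.13. In miR-126a the 5p arm was at -0.42 ± 0.27 and the 3p arm at 0.30 ± 0.19, a ratio difference of -0.75. Without DSS 3, 1 pair was called, miR-671.

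**Figure D4:**
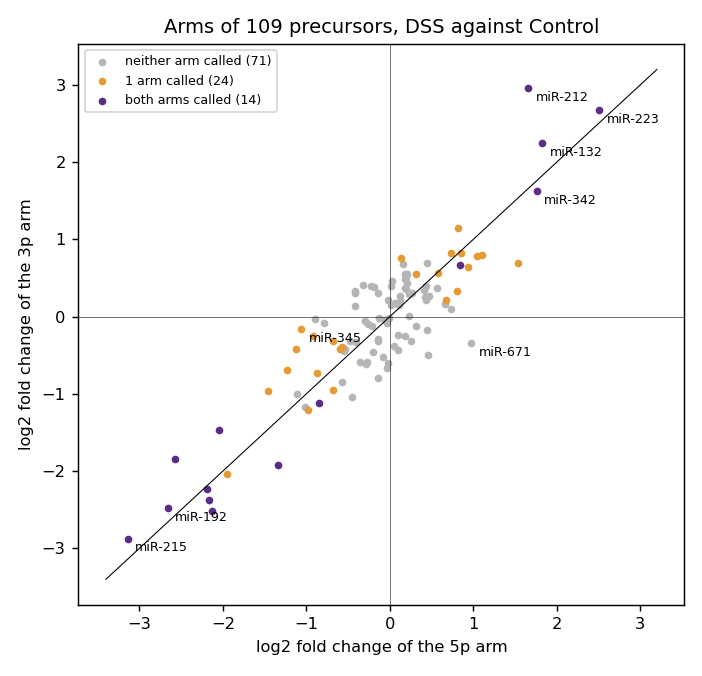
Log2 fold change of the 5p arm against that of the 3p arm, DSS against Control, for the 109 precursors with both arms tested; the diagonal marks equal change. All 14 pairs with both arms called (purple) lie at the lower left or the upper right, and miR-212 lies above the diagonal.

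Calls differed by level. Of the 174 tested miRNAs with a mean under 10 CPM 9.2% were called, with a median standard error of 0.362. From 10 to 100 CPM 26.7% of 135 were called, from 100 to 1000 CPM 30.4% of 69, and over 1000 CPM 35.9% of 39, where 3 rose and 11 fell. Under 10 CPM the calls were 13 higher and 3 lower. Some entries had near-identical counts, within 2% in every library, among them miR-129-5p with miR-129b-3p, miR-9-5p with miR-9b-3p, and miR-24-2-5p with miR-3074-2-3p, which share 20 or 21 bases as reverse complements. Each such pair is uncertain as 2 calls, and with each counted once 37 miRNAs rose and 47 fell.

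The number of calls depended on the libraries in the fit. Without Control 3 edgeR called 0 higher and 3 lower, with 112 at an unadjusted p under 0.05. Without Control 1 there were 7 higher and 8 lower, and without Control 2 there were 10 higher and 28 lower. Leaving out a DSS library gave 32 to 42 higher and 35 to 55 lower. With the 3 samples given royal jelly acid also in the fit, which then share the estimate of spread, 10 rose and 7 fell, and all 17 were among the 87. All 87 kept their sign in each of the 16 other fits, which reuse the libraries in which they were called and are no independent check. Of the 87, miR-194-1-3p and miR-148a-5p kept their call in all 16. miR-132-3p, miR-212-3p, miR-146a-5p and miR-205-5p kept it in 15. miR-107-3p, miR-24-2-5p, miR-3074-2-3p and miR-337-5p lost it whenever any 1 library was left out.

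**Figure D5:**
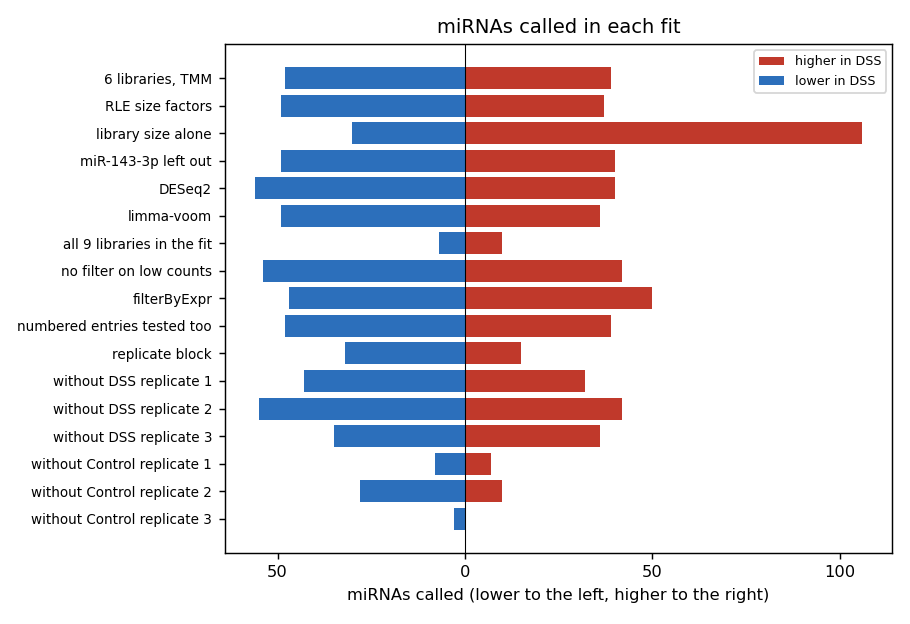
Number of miRNAs called higher (red, to the right) and lower (blue, to the left) in DSS in each of 17 fits. The fit of 6 libraries with TMM gives 39 and 48, scaling by library size alone 106 and 30, and leaving out Control 3 gives 0 and 3.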

How the data were processed

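Small RNA libraries of whole colon, with inserts of 18 to 40 bp, were sequenced as 50-base single reads, per the labels' protocols. Per the file headers, the authors' table gives the raw read count of each mature miRNA in each sample. It also gives TPM values that the authors made from these counts, scaled per 1000000, which were not used. Bowtie and DESeq are named in the submitters' processing notes, with no version or role. The genome build was not given in the sources used here. Counts were tested with edgeR 4.0.16 (R 4.3.3, quasi-likelihood, TMM, 1 mean per group, 4 residual degrees of freedom), at a Benjamini-Hochberg adjusted p under 0.05 over 417 miRNAs. Library sizes were the sums of mouse miRNA reads, and the numbered entries left out held at most 0.00135% of reads. Arm ratios used limma 3.58.1, and DESeq2 1.42.0 was an alternative. With 3 samples against 3, an exact permutation test cannot give a p under 0.1, so none was run. Hosts and positions come from GENCODE M21 and RefSeq (GRCm38).

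The members and lists were chosen with earlier results of these data known. Named miRNAs were the 15 largest called changes in each direction at a mean of at least 10 CPM, list members, the ends and leading members of families and clusters, arm pairs with the smallest p, the 5 most abundant miRNAs, and called miRNAs sharing a host. miR-148a-5p, miR-107-3p, miR-24-2-5p, miR-3074-2-3p, miR-30e-3p and the miRNAs in proportions of reads were chosen after their values were seen. Replicates differed by a chi-square of 40.9 to 681 per degree of freedom, where sampling noise alone gives 1, so none was counted as a repeat. Alternatives were other scalings, filters and tools, each library left out, and near-identical entries counted once, the last added after seeing the data.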

Additional observations from a re-analysis of the deposited data

How the results depend on the processing

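Counts of calls moved most with the libraries. The signs of the 87 called miRNAs held in all 16 other fits, which reuse the libraries in which the 87 were called and are no independent check. Against 39 higher and 48 lower, library size alone gave 106 and 30, and the fit to all 9 libraries gave 10 and 7. Leaving out each library in turn gave 0 to 42 higher and 3 to 55 lower, and 0 to 1 arm pairs. The replicate block gave 15 higher and 32 lower, but the replicate numbers share only a number: same-numbered libraries had correlations of -0.09, -0.17 and -0.12 in their deviations from group means. RLE size factors, DESeq2, limma-voom, no filter and filterByExpr gave 36 to 50 higher and 47 to 56 lower. Of miRNAs not called, signs turned with library size alone for miR-143-3p (0.031), miR-106b-3p (0.10), miR-196b-5p (0.053), miR-25-3p (0.21), miR-30c-5p (0.0054) and miR-345-3p (0.19). Leaving out each library gave log2 fold changes of -0.32 to 0.034 for miR-345-3p (positive without Control 3), -0.014 to 0.44 for miR-10a-5p (negative without DSS 1) and -0.035 to 0.37 for miR-21a-5p (negative without DSS 1 or, at -0.0076, without Control 1). The cause was not tested. Depth limits the 174 miRNAs under 10 CPM most.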
